A study of Mus musculus with 14 samples.

Results

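Cathepsins are the main proteases of the lysosome, and cystatin C is a small secreted protein that blocks many of them. The genes described here are 9 cathepsin genes, Ctsd, Ctsb, Ctsl, Ctss, Ctsz, Ctsc, Ctsh, Ctsa and Ctsf, and Cst3, which encodes cystatin C. They were chosen by name from a table of 41739 mouse genes, all 10 were found, and all 10 passed the filter on low values. The 14 RNA libraries came from microglia, the brain's own macrophages, isolated with magnetic beads. The KO mice had the genotype Rheb F/F; Tmem119-cre ER, in which a tamoxifen-inducible Cre recombinase driven by the microglial gene Tmem119 acts on floxed alleles of Rheb, whose product switches on the kinase complex mTORC1. The WT mice had the floxed alleles without Cre (Rheb F/F), so that Cre, the Tmem119 allele and the loss of Rheb cannot be told apart. Mice 8 weeks of age had received tamoxifen and then daily intraperitoneal injections for 4 days of LPS, a bacterial endotoxin, at 1.0 mg/kg, or of PBS. There were 4 KO LPS, 4 WT LPS, 3 KO PBS and 3 WT PBS libraries, and whether each library stands for its own mouse is not in the labels. The p-values therefore describe the spread between libraries, which may be technical.

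The values are TPM, the read counts of each gene divided by its length and scaled to a fixed total per library, so that levels of different genes can be compared. Reads recovered from the table numbered between 7998451 in KO LPS replicate 4 and 32304000 in WT LPS replicate 1, and each of the 10 genes had at least 2158 reads in every library, so counting error was small beside the spread between libraries. Rheb averaged 22.7 ± 2.43 TPM in KO LPS against 30.8 ± 3.83 TPM in WT LPS (SD, n = 4 each), and 18.2 ± 1.43 TPM in KO PBS against 32.1 ± 2.39 TPM in WT PBS (n = 3 each). The microglial markers Csf1r and Cx3cr1 were high in all libraries. Neutrophil markers were also present, with a summed level of 8 genes of 11740 to 25391 TPM in KO LPS, 9698 to 22318 in WT LPS, 5128 to 8138 in KO PBS and 5688 to 23646 TPM in WT PBS. Pituitary hormone transcripts were high in the WT PBS library WT914 and in KO LPS replicate 3, where growth hormone (Gh) reached 78126 and 19672 TPM. The summed level of 4 Y-linked genes was 229 to 256 TPM in the PBS libraries and at most 1.22 TPM in the LPS libraries, although the design names female mice only. Sex and treatment therefore cannot be told apart in any LPS to PBS value, while each KO to WT comparison lies within 1 treatment and 1 sex.

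Cathepsins are made as inactive precursors and become active in the acid interior of the lysosome, to which most are carried by the mannose 6-phosphate route. The family holds aspartyl, cysteine and serine proteases, and cystatins act on the cysteine type only. Microglia use them to digest engulfed material and to prepare antigens for presentation, and lysosomal genes are known targets of the transcription factor TFEB, which mTORC1 restrains. Cystatin C is secreted by many cells of the brain, including astrocytes and choroid plexus epithelium.

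Cst3 and Ctss, the gene of the elastin-degrading cysteine protease cathepsin S, were the most abundant of the 10. Cst3 ranked 1, 1 and 2 among all genes by TPM in the WT PBS libraries and 2, 3 and 2 in KO PBS, against ranks of 12 to 15 in KO LPS and 3 to 5 in WT LPS. In PBS libraries of both genotypes the order by mean was Cst3, Ctss, Ctsd, Ctsz, Ctsb and Ctsa. In LPS libraries of both genotypes Ctss stood above Cst3, with ranges that did not overlap in KO LPS and did in WT LPS, and the following places were again taken by Ctsd, Ctsz, Ctsb and Ctsa. Ctsh, Ctsl and Ctsc followed at 315 to 585 TPM in group means, with ranges that overlapped between neighbours in every group. Ctsf was lowest in all 4 groups. Together the 10 genes made up 2.28 ± 0.279% of all TPM in KO LPS, 3.69 ± 0.303% in WT LPS (n = 4 each), 3.26 ± 0.146% in KO PBS and 4.25 ± 0.492% in WT PBS (n = 3 each).

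**Figure D1:**
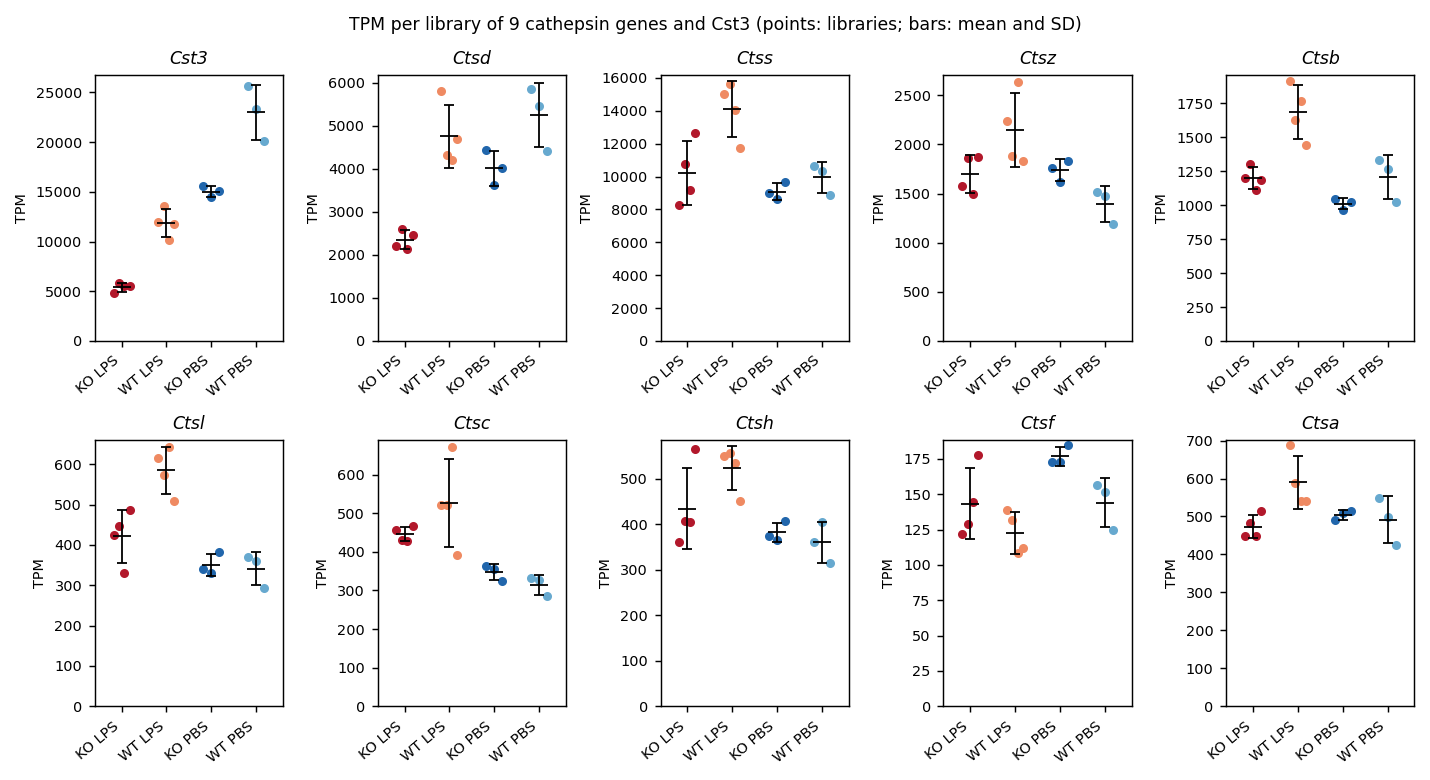
TPM of the 10 genes in each library (points) of the 4 groups, with the mean and SD as bars and 1 panel per gene, each axis starting at 0. Cst3, Ctsd, Ctsb, Ctsl and Ctsa were lower in every KO LPS library than in every WT LPS library, as were 1.96% of all genes tested. Under PBS, Cst3 was lower in every KO library, as were 10.9% of all genes tested. Ctsz and Ctsf were higher in every KO PBS library, as were 14.9%.

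Under LPS, the gene of the inhibitor and that of the aspartyl protease were lower in KO microglia. Cst3 stood at 4789, 5815, 5481 and 5569 TPM in the KO LPS libraries, against 12015, 13555, 10179 and 11748 TPM in the WT LPS libraries. The highest KO library lay well below the lowest WT library, and the KO mean was 45.6% of the WT mean. The log2 fold change was -1.13 ± 0.19 (SE, 4 libraries per group), with an adjusted p of 0.0226 by limma over all 18724 genes tested. Ctsd, which encodes cathepsin D, the chief aspartyl protease of the lysosome, stood at 2210, 2611, 2142 and 2470 TPM in the KO LPS libraries, against 5810, 4319, 4210 and 4705 TPM in the WT LPS libraries. These groups did not overlap either, and the KO mean was 49.5% of the WT mean. The log2 fold change of Ctsd was -1.01 ± 0.15 (SE, 4 libraries per group, limma adjusted p = 0.0175). An exact two-sided permutation test of TPM returned p = 0.0286 for each, which is the minimum with groups of 4. These 2 genes were the called members among the 10, where 0.497% of all genes tested were called. The calls rested on few libraries: without KO LPS replicate 3, the adjusted p was 0.0539 for Ctsd and 0.0725 for Cst3, at log2 fold changes of -0.96 and -1.14, and Cst3 was also lost without KO LPS replicate 2, WT LPS replicate 1 or WT LPS replicate 2 (adjusted p = 0.0525, 0.063 and 0.0673). With quantile normalisation Cst3 was not called (-1.04, adjusted p = 0.116, limma), and with no filter on low values neither gene was (adjusted p = 0.0628 for Ctsd and 0.231 for Cst3). A fit of the LPS libraries alone called neither (adjusted p = 0.111 for Ctsd and 0.164 for Cst3, limma), at the same fold changes.

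The promoters of these 2 genes, the members called under LPS, are shown from RefSeq (GRCm38.p6), from 250 bases before to 50 bases after the start of the transcript, 5′ to 3′ on the gene's strand. Capitals mark matches on either strand to CACGTG, the core letters bound by TFEB and related factors, and to GAGGAA, a core of sites for the myeloid factor PU.1. The Ctsd window lies at chr7:142387778-142388077 and the Cst3 window at chr2:148875463-148875762, both on the minus strand.
Ctsd: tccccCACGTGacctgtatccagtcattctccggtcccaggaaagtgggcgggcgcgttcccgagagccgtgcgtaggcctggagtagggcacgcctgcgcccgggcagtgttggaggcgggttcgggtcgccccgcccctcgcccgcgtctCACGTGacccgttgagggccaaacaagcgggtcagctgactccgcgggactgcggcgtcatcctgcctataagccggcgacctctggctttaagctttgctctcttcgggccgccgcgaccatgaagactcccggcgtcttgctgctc
Cst3: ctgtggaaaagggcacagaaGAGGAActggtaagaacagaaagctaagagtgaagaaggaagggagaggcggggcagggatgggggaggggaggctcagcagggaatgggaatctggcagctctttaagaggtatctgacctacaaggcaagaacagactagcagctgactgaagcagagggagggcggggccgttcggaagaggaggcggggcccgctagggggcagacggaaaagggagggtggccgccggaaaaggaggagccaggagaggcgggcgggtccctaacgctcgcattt
The Ctsd window held CACGTG at positions -245 and -98 relative to the start and no GAGGAA, while the Cst3 window held GAGGAA at -230 and no CACGTG. RefSeq windows were found for 8 of the 10 genes, with 2 for Ctsa. CACGTG was present for Ctsd, Ctsa, Ctsl and Ctsf, and in 7.15% of all 32851 promoter windows. GAGGAA was present for Cst3, Ctss and Ctsc, and in 28.3% of all windows. The longer CLEAR motif, in which CACGTG has GT before it and AC after it, was as exact letters in no window of these genes and in 0.326% of all. Sites that differ from it by a letter, such as ctCACGTGac at -98 in Ctsd, were not counted. The AP-1 letters TGANTCA, in 7.81% of all windows, were in none of these, and the NF-kB letters, GGG and TTCC with 3 bases between them, in 5.56% of all, were present for Ctsz. All motifs were searched on both strands, CACGTG lies within the CLEAR motif, and the matches are a description of letters only.

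The other cathepsins were less far apart under LPS, and none passed the test as set, though some did under other settings. Ctsb, which encodes the abundant cysteine protease cathepsin B, stood at 1200, 1304, 1112 and 1182 TPM in the KO LPS libraries, against 1915, 1625, 1767 and 1445 TPM in the WT LPS libraries, without overlap. Its log2 fold change was -0.49 ± 0.11 (SE, adjusted p = 0.0722, limma), and it was called after median-of-ratios scaling (adjusted p = 0.0339), after quantile normalisation (0.0088), after removal of Gm23935, mitochondrial and pituitary genes (0.0191) and with voom (0.00949). Ctsl, the gene of the broad-acting cysteine protease cathepsin L, had 425, 446, 331 and 486 TPM in the KO LPS libraries, against 617, 573, 642 and 509 TPM in the WT LPS libraries. These groups did not overlap, and limma gave -0.48 ± 0.12 on the log2 scale (adjusted p = 0.104). Ctsl was called with quantile normalisation, the same removal, and voom (adjusted p = 0.018, 0.0402 and 0.0299). Ctsa, encoding the serine carboxypeptidase that also protects neuraminidase and beta-galactosidase in the lysosome, averaged 473 ± 30.9 TPM in KO LPS and 590 ± 69.4 TPM in WT LPS (SD, n = 4 each), likewise without overlap. Ctss averaged 10219 ± 1931 TPM in KO LPS and 14100 ± 1722 TPM in WT LPS, and the groups overlapped (adjusted p = 0.372 with limma and 0.044 with voom), with 12673 TPM in KO LPS replicate 4 and 11719 TPM in WT LPS replicate 4. Gm23935 alone took 15.4% of TPM in WT LPS replicate 4 and 6.79% in KO LPS replicate 4, which leaves less TPM for other genes. Its part in this overlap was not tested. For Ctsz, Ctsh and Ctsc, genes of the exopeptidases cathepsin X, H and C, the log2 fold changes were -0.33, -0.29 and -0.21, and the groups overlapped. Ctsf, which encodes cathepsin F, was the gene with a positive value, 0.21 ± 0.12 (adjusted p = 0.532, limma). In all, 5 of the 10 genes were lower in every KO library than in every WT library, where 1.96% of all genes tested were. The median log2 fold change of the 10 was -0.40, beside 0.07 over all genes tested. In the same comparison 12 microglia markers, Tmem119 included, had a median of -0.38. Whether the 10 genes differ from these markers was not tested.

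Under PBS, Cst3 was again lower in KO, short of the test. It stood at 15602, 14432 and 15054 TPM in the KO PBS libraries, against 25596, 23288 and 20122 TPM in the WT PBS libraries. The groups did not overlap, and the KO mean was 65.3% of the WT mean. The log2 fold change was -0.61 ± 0.21 (SE, 3 libraries per group, limma adjusted p = 0.197), and an exact two-sided permutation test returned p = 0.1, which is the minimum with groups of 3. Modelled as recovered reads with voom, Cst3 was called, with a log2 fold change of -0.65 (adjusted p = 0.0114). Ctsd stood at 4428, 3617 and 4014 TPM in the KO PBS libraries, against 5864, 5471 and 4412 TPM in the WT PBS libraries. The highest KO library just exceeded the lowest WT library, and limma gave -0.38 ± 0.17 on the log2 scale (adjusted p = 0.313). Gm23935, mitochondrial and pituitary genes took 14.4% of TPM in that WT library, WT914, against 5.22% in that KO library, KO911. Their part in this overlap was not tested. Ctsb averaged 1011 ± 40.1 TPM in KO PBS and 1208 ± 162 TPM in WT PBS (n = 3 each), and Ctss averaged 9087 ± 519 TPM in KO PBS and 9949 ± 936 TPM in WT PBS. On the other side of 0, Ctsz averaged 1736 ± 113 TPM in KO PBS and 1394 ± 182 TPM in WT PBS, with all KO libraries higher. Ctsf averaged 177 ± 6.68 TPM in KO PBS and 144 ± 17.3 TPM in WT PBS, also without overlap. Ctsl, Ctsc, Ctsh and Ctsa had log2 fold changes of 0.05 to 0.15. None of the 10 was called by limma, where 1.02% of all genes tested were. Ctsd and Cst3 had an unadjusted p under 0.05, as did 2935 of all 18724 genes tested. With groups of 3, 10.9% of all genes tested were lower and 14.9% higher in KO PBS without overlap, so that 1 lower and 2 higher among the 10 are near what all genes show.

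**Figure D2:**
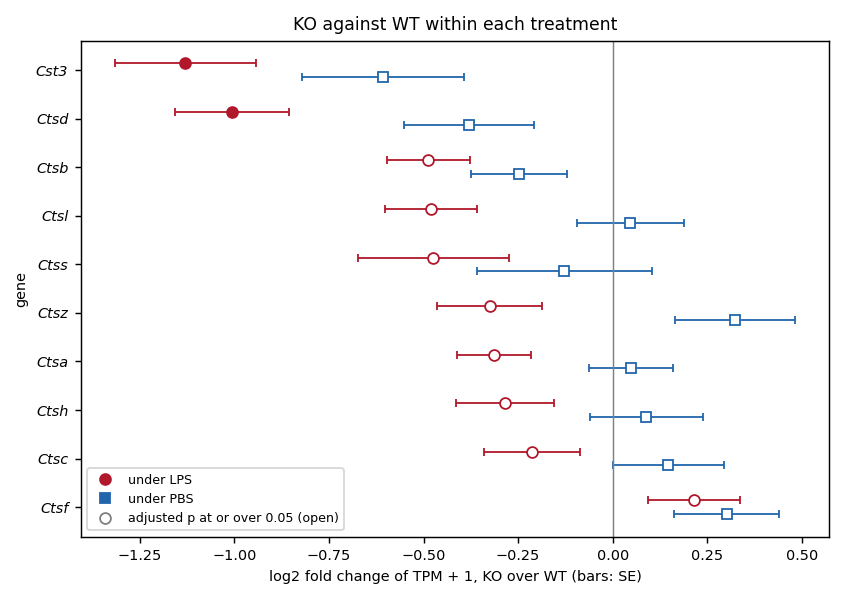
Log2 fold change of TPM + 1 in KO over WT for each of the 10 genes under LPS (red circles) and PBS (blue squares), with the SE as bars. Filled symbols passed the test, which were Cst3 and Ctsd under LPS, and Cst3 has the most negative value under both treatments.

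Averaged over both treatments, 3 of the 10 genes fell in KO: Cst3 (log2 fold change -0.87 ± 0.14, adjusted p = 0.00547), Ctsd (-0.69 ± 0.11, 0.00558) and Ctsb (-0.37 ± 0.08, 0.0287), where each second number is an adjusted p of limma from all 14 libraries. In this comparison 3.94% of all genes tested were called and 0.913% were called lower. Ctsd stayed past the test in each of the 24 alternatives tried, and Cst3 in 23, the exception being the fit with no filter on low values (adjusted p = 0.114). The fall of Ctsb was lost without any of the KO PBS libraries KO911, KO912 and KO915, the WT PBS libraries WT904 and WT913, KO LPS replicate 3 or WT LPS replicate 1, with adjusted p-values of 0.0552 to 0.0888. Ctss (-0.30), Ctsl (-0.22), Ctsa (-0.13), Ctsh (-0.10), Ctsc (-0.03) and Ctsf (0.26) did not pass, and Ctsz was near 0, with values of opposite sign under LPS and PBS. The difference between the KO to WT value under LPS and that under PBS was negative for all 10 genes, and for 44.1% of all genes tested. It ran from -0.65 for Ctsz, -0.63 for Ctsd, -0.53 for Ctsl and -0.52 for Cst3 to -0.09 for Ctsf. The median was -0.37 for the 10, 0.05 for all genes tested and -0.41 for 12 microglia markers, Tmem119 included. A negative sign was thus not shown to be particular to the 10. None of their differences passed the test (smallest adjusted p = 0.443, limma), where 0.00% of all genes tested were called, also with voom. An unadjusted p under 0.05 was found for 4 genes (Ctsd, Ctsz, Ctsa and Ctsl), as for 1780 of all 18724 genes tested. An effect of genotype that differs between LPS and PBS libraries was therefore not shown for these genes.

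The libraries also differed in microglial and other transcripts. The summed level of 11 microglia markers (Tmem119, which drives Cre, left out) was 13512 to 18798 TPM in KO LPS against 17699 to 21998 TPM in WT LPS, and 28094 to 29656 TPM in KO PBS against 25005 to 32221 TPM in WT PBS. Of the 11, Fcrls was called lower in KO under LPS, where 0.240% of all genes tested were, and Siglech on average, where 0.913% were. The sum may therefore itself differ by genotype, which bears on the ratios below. In bulk RNA, fewer cells of a type and less RNA per cell cannot be told apart. Choroid plexus markers, 6 genes led by Ttr, summed to 3968 to 14557 TPM in KO LPS against 2286 to 8829 TPM in WT LPS, and 10886 to 25906 TPM in KO PBS against 16506 to 21525 TPM in WT PBS. Astrocyte markers, 8 genes, summed to 324 to 675 TPM in KO LPS against 302 to 599 TPM in WT LPS, and 701 to 830 TPM in KO PBS against 701 to 1039 TPM in WT PBS. Both lists, from cells that make cystatin C, overlapped between KO and WT under each treatment, and no gene of either list was under 1 TPM throughout a group.

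Ratios within a library do not depend on how the library was scaled, and those below were chosen after the values were seen. Divided by the 11 microglia markers, Cst3 was 0.354, 0.413, 0.377 and 0.296 in the KO LPS libraries, against 0.581, 0.616, 0.575 and 0.649 in the WT LPS libraries. The same ratio was 0.531, 0.514 and 0.508 in the KO PBS libraries, against 0.794, 0.802 and 0.805 in the WT PBS libraries, so that KO lay below WT without overlap under both treatments. Ctsd over the same markers was 0.164, 0.185, 0.147 and 0.131 in the KO LPS libraries, against 0.281, 0.196, 0.238 and 0.26 in the WT LPS libraries. It was 0.151, 0.129 and 0.135 in the KO PBS libraries, against 0.182, 0.188 and 0.176 in the WT PBS libraries, again without overlap. Under LPS, Cst3 and Ctsd were the 2 genes of the 10 that lay lower in every KO library on this ratio, where 0.310% of all genes tested did. Ctsb, Ctsl and Ctsa, which were parted in TPM, overlapped on the ratio: Ctsb was 0.0629 to 0.0925 in KO LPS and 0.0738 to 0.0998 in WT LPS. Ctsf was 0.00904 to 0.00997 in KO LPS against 0.006 to 0.0067 in WT LPS and lay higher without overlap, as did 22.1% of all genes tested. Under PBS, Cst3, Ctsd, Ctsb and Ctss lay lower in every KO library, where 10.7% of all genes tested did. Ctsz, at 0.0574 to 0.0619 in KO PBS against 0.0472 to 0.0508 in WT PBS, and Ctsf, at 0.00589 to 0.00623 in KO PBS against 0.00486 to 0.00522 in WT PBS, lay higher, as did 2254 of the 18724 genes tested.

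The ratio of inhibitor to cysteine protease transcripts differed between all 4 groups. Cst3 over the summed level of the 7 cysteine cathepsins (Ctsb, Ctsl, Ctss, Ctsz, Ctsc, Ctsh and Ctsf) was 0.376 ± 0.0411 in KO LPS, against 0.608 ± 0.0928 in WT LPS (SD, n = 4 each). It was 1.15 ± 0.0526 in KO PBS, against 1.68 ± 0.0565 in WT PBS (n = 3 each). No 2 groups overlapped, with the highest KO LPS library at 0.418 and the lowest WT LPS library at 0.499. How many of all genes part on ratios to this sum was not counted. In TPM, 1.96% of all genes tested lay lower in KO without overlap under LPS and 10.9% under PBS. Lower in LPS than in PBS libraries without overlap were 31.3% in KO and 37.4% in WT. Ctsd over the same sum was 0.163 ± 0.0156 in KO LPS against 0.244 ± 0.0434 in WT LPS, and 0.307 ± 0.0275 in KO PBS against 0.382 ± 0.0171 in WT PBS. Within the cysteine cathepsins, Ctss took 69.9 ± 2.51% of their sum in KO LPS against 71.6 ± 2.43% in WT LPS, with overlap. It took 69.4 ± 0.444% in KO PBS against 72.6 ± 0.65% in WT PBS, without overlap. How many of all genes part on such a percentage was not counted either.

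**Figure D3:**
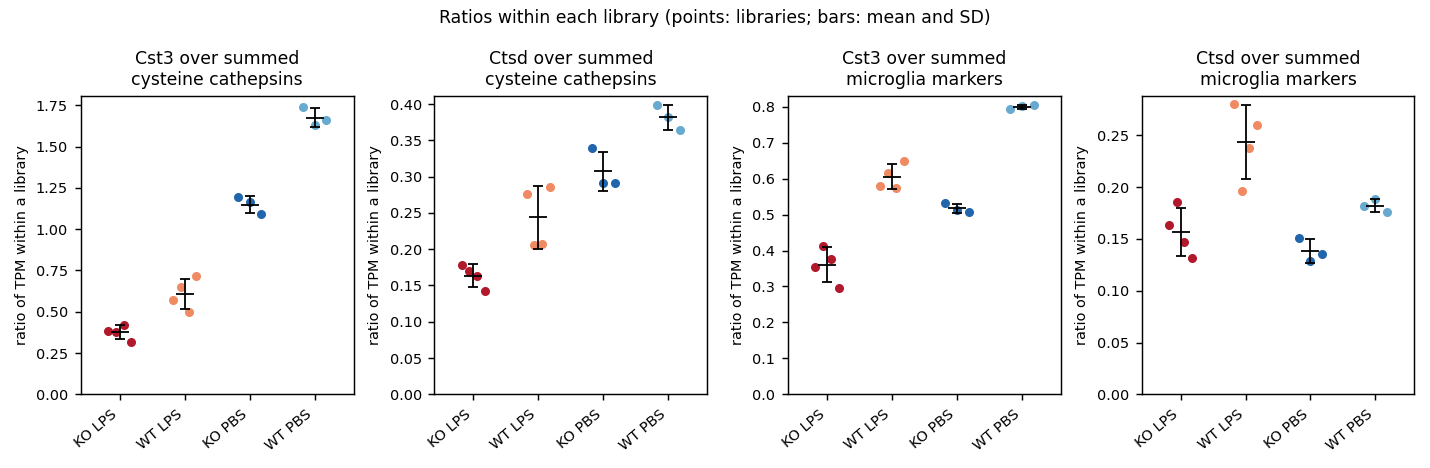
Ratios of TPM within each library (points) for Cst3 and Ctsd over the 7 summed cysteine cathepsins (left panels) and over 11 summed microglia markers without Tmem119 (right panels), with the mean and SD as bars and axes starting at 0. In all 4 panels every KO library lies below every WT library of the same treatment. Over the microglia markers, 0.310% of all genes tested did so under LPS and 10.7% under PBS. Over the cysteine cathepsins this share was not counted.

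LPS libraries of WT mice had higher levels of most cysteine cathepsins and less Cst3 than PBS libraries of WT mice, in a contrast where sex and treatment cannot be told apart. Ctsl averaged 585 ± 57.9 TPM in WT LPS and 341 ± 41.4 TPM in WT PBS (SD, n = 4 and n = 3), a log2 fold change of 0.78 ± 0.13 (SE, adjusted p = 0.000773, limma). Ctsc averaged 526 ± 114 TPM in WT LPS and 315 ± 25.6 TPM in WT PBS (0.72, adjusted p = 0.00156). Ctsz (0.62, adjusted p = 0.00586), Ctsh (0.54, adjusted p = 0.00833) and Ctsb (0.48, adjusted p = 0.00642) rose as well. Monocyte markers, 8 genes, summed to 1282 to 2344 TPM in WT LPS against 348 to 1067 TPM in WT PBS, and to 1294 to 1863 TPM in KO LPS against 294 to 475 TPM in KO PBS. All 8 were called higher in both genotypes, with median log2 fold changes of 1.41 in WT and 1.96 in KO, and their part in the cathepsin values was not tested. Ctss averaged 14100 ± 1722 TPM in WT LPS and 9949 ± 936 TPM in WT PBS, without overlap and short of the test (0.50, adjusted p = 0.079, limma). Cst3 fell to 11874 ± 1382 TPM in WT LPS, against 23002 ± 2748 TPM in WT PBS (-0.95, adjusted p = 0.00273). Ctsd averaged 4761 ± 731 TPM in WT LPS and 5249 ± 751 TPM in WT PBS (-0.14, adjusted p = 0.504, limma). Thus 5 of the 10 rose, where 7.95% of all genes tested did, and 1 fell, where 34.1% did (42.0% in either direction). Without overlap, 6 of the 10 lay higher in WT LPS, where 8.45% of all genes tested did, and Cst3 lay lower, where 37.4% did. All genes tested had a median log2 fold change of -0.28 here, which median-of-ratios scaling moved to 0.01. Under that scaling the same 5 rises were called, where 3022 of all 18706 genes tested were called higher. Cst3 was lost there (-0.62, adjusted p = 0.0643, limma). Over 25 alternatives, Ctss was also called in 5, with log2 values up to 0.84, and Ctsa in 7, with values up to 0.60.

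In KO mice the same contrast gave falls of Cst3 and Ctsd. Cst3 averaged 5414 ± 440 TPM in KO LPS and 15029 ± 586 TPM in KO PBS (-1.48 ± 0.20, adjusted p = 0.000172, limma). Ctsd averaged 2358 ± 220 TPM in KO LPS and 4020 ± 406 TPM in KO PBS (-0.77 ± 0.16, adjusted p = 0.00284), and was lost with median-of-ratios scaling (-0.50, adjusted p = 0.0582). Both lay lower in every KO LPS library, as did 31.3% of all genes tested, and Ctsb and Ctsc lay higher, as did 9.52%. Ctsc (0.36), Ctsl (0.25), Ctsb (0.24), Ctsh (0.17) and Ctss (0.15) had positive values that did not pass, and Ctsz, Ctsa and Ctsf had values of -0.03, -0.10 and -0.32. Of all genes tested, 34.7% were called, 26.9% lower and 7.82% higher, with a median log2 fold change of -0.22. The 2 falls among the 10 are thus near what all genes show. With median-of-ratios scaling, which set the median of all genes to 0.00, Ctsb, Ctsl, Ctsc and Ctsh were called higher, as were 2330 of all 18706 genes tested. The sum of the 11 microglia markers was itself lower with LPS, at means of 15234 against 29042 TPM in KO and 19626 against 28759 TPM in WT. With Tmem119 included, 11 of 12 markers were called lower in KO and 7 of 12 in WT, and 1 higher in each. Of all genes tested, 26.9% and 34.1% were called lower. A gene can therefore lie higher on this ratio without a higher TPM. Over the 11 microglia markers, Cst3 lay lower in every KO LPS library than in every KO PBS library, where 0.940% of all genes tested did, while 8 of the 10 genes lay higher, where 49.6% did. In WT the ratio of Cst3 was lower in every LPS library, where 10.7% of all genes tested were, and 9 of the 10 genes lay higher, where 28.7% did. The LPS to PBS values of KO and WT were not shown to differ, since the test of that difference is the interaction given above. Markers of other cells that make cystatin C were lower in the LPS libraries too: all 6 choroid plexus markers were called lower, with median log2 fold changes of -1.32 in KO and -1.85 in WT. The astrocyte sums given above did not overlap between LPS and PBS in either genotype, with 3 of 8 markers called lower in KO and 5 of 8 in WT. The part of these cells in the Cst3 values was not tested.

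**Figure D4:**
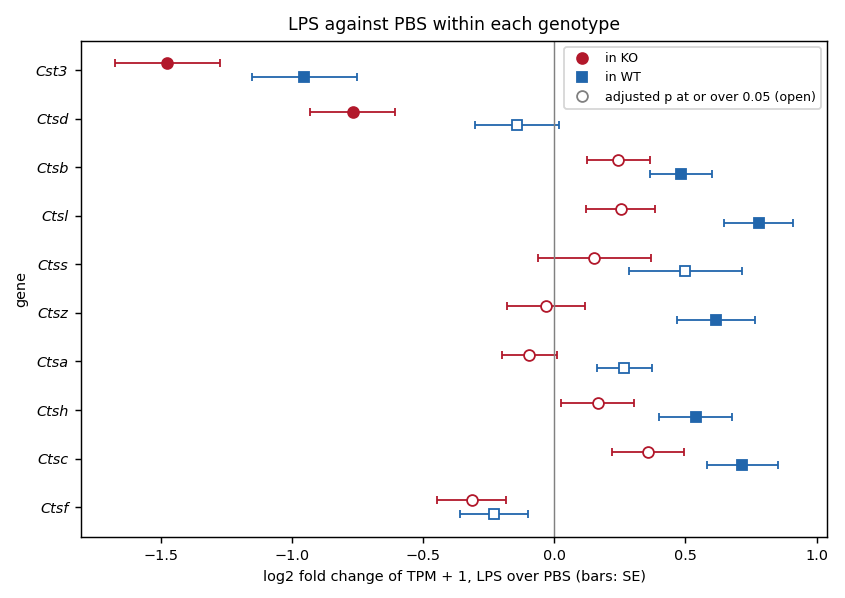
Log2 fold change of TPM + 1 in LPS over PBS libraries for each of the 10 genes in KO (red circles) and WT (blue squares), with the SE as bars. Filled symbols passed an adjusted p of 0.05: Cst3 and Ctsd in KO, and Cst3, Ctsb, Ctsl, Ctsz, Ctsh and Ctsc in WT.

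In the other lists of the pathway, Ctla2b, Nagpa and Sorl1 were called by genotype, where 0.497% of all genes tested were under LPS, 1.02% under PBS and 3.94% on average. Whether these lists differ from the 10 genes was not tested. Of 14 further cathepsin genes, 5 passed the filter and none was called in KO over WT under LPS, under PBS or on average. Ctso, a widely expressed cysteine cathepsin, averaged 49.0 ± 4.08 TPM in KO LPS against 54.2 ± 6.49 TPM in WT LPS, and Ctsk, known from bone resorption, 7.58 ± 1.93 TPM in KO LPS against 6.33 ± 2.07 TPM in WT LPS. Ctsg, a serine protease of neutrophil granules, ranged widely and averaged 23.7 ± 9.52 TPM in KO LPS against 9.84 ± 7.22 TPM in WT LPS. Of 24 other cystatin and cathepsin inhibitor genes, 10 passed the filter, and Ctla2b, a mouse gene resembling a cathepsin propeptide, fell in KO under PBS (-1.40, adjusted p = 0.0434, limma) and on average (-0.78, adjusted p = 0.0357). It averaged 1.73 ± 0.52 TPM in KO PBS against 6.16 ± 0.912 TPM in WT PBS, and it has a near copy, Ctla2a, so that its counts are uncertain. Cstb, the intracellular cystatin B, averaged 177 ± 34.8 TPM in KO LPS against 222 ± 116 TPM in WT LPS, and Cd74, the invariant chain, of which a long form binds cathepsin L, 409 ± 175 TPM in KO LPS against 315 ± 77.1 TPM in WT LPS. Cst7, encoding cystatin F, an inhibitor found in immune cells, averaged 62 ± 20.8 TPM in KO LPS against 63.2 ± 17.1 TPM in WT LPS, and 37.8 ± 4.19 TPM in KO PBS against 17.5 ± 1.58 TPM in WT PBS (PBS log2 fold change 1.07, adjusted p = 0.0611, limma).

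None of 11 partner and other peptidase genes was called by genotype with limma, which with so few genes is near the shares over all genes given above. Psap, the precursor of the saposins, averaged 4405 ± 407 TPM in KO LPS against 5095 ± 673 TPM in WT LPS. Lgmn, the asparaginyl protease that cuts cathepsin precursors, averaged 3190 ± 394 TPM in KO LPS against 3936 ± 276 TPM in WT LPS, and Grn, progranulin, 1179 ± 106 TPM in KO LPS against 1542 ± 196 TPM in WT LPS. Of 12 genes of delivery to the lysosome, Nagpa, which uncovers the mannose 6-phosphate mark, rose in KO under PBS (0.58, adjusted p = 0.037, limma) and on average (0.32, adjusted p = 0.0283), and the sorting receptor gene Sorl1 fell on average (-0.42, adjusted p = 0.0324). M6pr, a mannose 6-phosphate receptor, had values of -0.09 under LPS and 0.04 under PBS, Sort1, the receptor sortilin, -0.32 and -0.12, and Scarb2, which carries glucocerebrosidase, -0.43 and -0.11, none past the test. The 4 genes of the TFEB family had no call by genotype, with log2 fold changes under LPS and PBS of -0.12 and 0.06 for Tfeb, -0.01 and 0.19 for Tfe3, and -0.18 and 0.02 for Mitf.

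Genes with patterns most like Cst3 and Ctsd were sought among the 3414 genes that averaged 50 TPM or more, as a description over 14 libraries that share 4 groups. Those nearest Cst3 were Tmem119, Serpine2, Ldhb, Gna12 and Crybb1, with Pearson likeness of 0.987 for Tmem119 and 0.958 for Crybb1 on the log2 scale. Those nearest Ctsd were Tspan7, Creg1, Hsd17b4, Edem2 and Crybb1, from 0.937 for Tspan7 to 0.922 for Crybb1. Tmem119 averaged 844 ± 116 TPM in KO LPS against 1733 ± 117 TPM in WT LPS. It averaged 2114 ± 97.2 TPM in KO PBS against 3467 ± 482 TPM in WT PBS, the same order of groups as Cst3. Tmem119 drives Cre in the KO mice only, and the part of that allele in its level was not tested. Crybb1, near both genes, averaged 179 TPM in KO LPS, 387 TPM in WT LPS, 407 TPM in KO PBS and 723 TPM in WT PBS. Creg1, which encodes a lysosomal glycoprotein, averaged 163 TPM in KO LPS, 232 TPM in WT LPS, 207 TPM in KO PBS and 256 TPM in WT PBS.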

How the data were processed

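The authors deposited 1 table of TPM per gene, with columns named by sample titles; each library sums to 1000000. The tools named, per the submitters' processing notes, were featureCounts 2.0.1, STAR 2.7.10b, cutadapt 4.4 and FastQC 0.11.9. The build named there is the human hg38, although all IDs are mouse genes. The length table and strand setting are not given in the sources used here. Symbols were matched for 41588 IDs. TPM times GENCODE M21 exon length gave whole reads within 0.02 for 41273 genes, including all 10 described, so depths are estimates. The log2 of TPM + 1 was modelled with limma 3.58.1 (R 4.3.3): 4 group means, intensity trend, genes with at least 1 TPM in at least 3 libraries, Benjamini-Hochberg adjustment over 18724 genes, called under 0.05. Fold changes on this scale understate those of low genes. Verbs of rise and fall refer to called genes. Members, lists and tests were chosen with earlier results of these data known. Named beyond the 10 genes were list members called by genotype, then the 3 with the highest mean TPM per list, and the 5 nearest patterns. Further alternatives changed the pseudocount, filter, scaling, trend or libraries; voom on recovered reads was added after seeing the data. Motifs were searched as exact letters on both strands. The fit was tested on simulated data.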

Additional observations from a re-analysis of the deposited data

How the results depend on the processing

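Of 1490 values of single genes under alternatives, 1385 kept their direction and side of the threshold, 26 lost a call, 44 gained one and 35 changed sign, the last from values of at most 0.23 in size. Called genes among the 10 for KO over WT under LPS numbered 2 as reported, beside 93 of all 18724 tested. They numbered 0 with no filter on low values (32 of all 29186) and 0 with the LPS groups alone (0 of all 17190). Without WT914 and KO LPS replicate 3 together they numbered 0 (8 of all 18246). With Gm23935, mitochondrial and pituitary genes removed there were 4 (222 of all 19047), and with voom 5 (298 of all 18422). Leaving out each library gave 0 to 2 (18 of all 18479 to 107 of all 18486). KO and WT LPS libraries share the numbers 1 to 4. The deviations of same-numbered libraries from their group means correlated at 0.06, -0.06, -0.09 and -0.03 across genes. These values gave no sign of pairing, but they cannot exclude that the numbers pair the libraries. The fit with the replicate block called 0 (0 of all 17190). Voom called 1 gene for KO over WT under PBS (186 of all 18422), and no filter left 1 of 3 on average (548 of all 29186). LPS over PBS in KO gave 5 with median-of-ratios (4249 of all 18706) and 4 with quantile (4894 of all 18724). The same contrast gave 5 with removal (4931 of all 19047) and 7 with voom (4366 of all 18422). The causes were not tested. Log2 values that changed sign were, for KO over WT under PBS, Ctsl (-0.0672 quantile, -0.0071 removal, -0.0579 without both libraries, -0.0579 to 0.1071 leaving out each), Ctsh (-0.0405, quantile; -0.0047 without both, -0.0047 to 0.1759 leaving out each) and Ctsa (-0.1306 quantile, -0.0051 removal, -0.0503 without both, -0.0503 to 0.133 leaving out each). On average, leaving out each library gave -0.0574 to 0.051 for Ctsz and -0.101 to 0.0284 for Ctsc. For LPS over PBS in KO, Ctsz had 0.23 with median-of-ratios, 0.1016 with removal, 0.0274 without both, 0.172 with voom and -0.0841 to 0.0274 leaving out each, and Ctsa 0.1691 with median-of-ratios, 0.0378 with removal and 0.1088 with voom. For LPS over PBS in WT, Ctsd had 0.1962 with median-of-ratios and 0.0206 with voom, and Ctsf 0.1059 with median-of-ratios. The interaction of Ctsf was 0.0067 without both and -0.1935 to 0.0165 leaving out each.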
